A study of Mus musculus with 16 samples.

Results

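The m6A reader genes encode the proteins that bind N6-methyladenosine (m6A) in RNA, and their own transcripts can carry the mark. The 10 genes described here are Ythdf1, Ythdf2, Ythdf3, Ythdc1, Ythdc2, Igf2bp2, Igf2bp3, Fmr1, Hnrnpa2b1 and Hnrnpc. They were chosen by name, and every peak on the same strand that overlapped an exon of one of them was taken. Of the 10 genes, 6 held a peak in at least 1 list, with 179 peaks of 169564 in all. Joined where they shared an exonic base, these peaks formed 26 regions of 52443.

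In MeRIP-seq, fragments that carry m6A are pulled down with an antibody (IP) and sequenced beside the fragments before the pull-down (input), and a stretch with an excess of IP reads is called as a peak. The tissue was peri-infarct cerebral cortex of male C57BL/6J mice, 6 to 8 weeks old at surgery and with no transgene or further treatment named. In the MCAO/R groups a nylon filament blocked the middle cerebral artery over 2 h. Reperfusion then lasted 0 h (MCAO/R-0 h), 6 h (MCAO/R-6 h) or 24 h (MCAO/R-24 h), while Sham mice were operated on without the filament. Each group had 2 IP libraries, each with 1 list of 18775 to 24078 peaks, and 2 input libraries that were not analysed here. The sources do not say whether a library held 1 mouse or several, so p-values measure only the spread between libraries, which may be technical. In bulk tissue, fewer cells of a type and less RNA per cell cannot be told apart, and the call of a peak also depends on the amount of a transcript, which was not measured here. Of the marker genes of brain cells, 5 of 7 for neurons, 3 of 4 for astrocytes, 2 of 3 for oligodendrocytes, 3 of 4 for microglia and 3 of 3 for endothelium held a peak in at least 1 list, which is not an RNA level.

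The readers fall into classes by how they meet the mark. YTHDF1, YTHDF2 and YTHDF3 are close paralogs that hold m6A directly in the pocket of a YTH domain near the C terminus and act on mRNA in the cytoplasm, where YTHDF2 is best known for mRNA decay and YTHDF1 for translation, although how far the paralogs differ is debated. YTHDC1 has the same domain and works in the nucleus, in splicing, export and the turnover of chromatin-bound RNA, and YTHDC2 is an RNA helicase known from meiosis. The IGF2BP proteins stabilize bound mRNA through KH domains, FMRP (from Fmr1) is a neuronal translation regulator lost in fragile X syndrome, and HNRNPA2B1 and HNRNPC are nuclear RNA-binding proteins for which binding through m6A-dependent changes in RNA structure has been described. Methylation itself is laid down mostly at the sequence purine, purine, A, C, then A, C or U (RRACH), often in long internal exons and near stop codons.

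Peaks were unevenly spread over these classes. The genes of the YTH proteins other than Ythdc2 held nearly all of them, with 57 peaks in Ythdc1, 42 in Ythdf2, 35 in Ythdf1 and 34 in Ythdf3, and each of these genes had a peak in all 8 lists. Hnrnpa2b1 held 6 peaks in 6 lists and Fmr1 held 5 peaks in 3 lists. Ythdc2, Igf2bp2, Igf2bp3 and Hnrnpc held 0 peaks in every list. A peak is called or not, so a gene without one may be unmethylated, little expressed or too shallowly read, and these cannot be told apart here. Over all protein-coding genes, 52.7% of 21770 had a peak in at least 1 list and 18.8% in all 8. Among the 9 writer genes of the same pathway (Mettl3, Mettl14, Wtap, Virma, Zc3h13, Rbm15, Rbm15b, Cbll1 and Mettl16), 9 held a peak and 6 held one in every list, with 14 of 58 regions found in all 8 lists. Of the erasers Fto and Alkbh5, 1 of 2 held a peak, and of 7 further binding proteins (Rbmx, Elavl1, Prrc2a, Fxr1, Fxr2, Eif3a and Lrpprc) 5 did.

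Reader peaks numbered 23 and 19 in Sham, 30 and 21 after 0 h of reperfusion, 24 and 22 after 6 h and 23 and 17 after 24 h. Their means were 21.0 ± 2.83, 25.5 ± 6.36, 23.0 ± 1.41 and 20.0 ± 4.24 (SD, n = 2 each), and the groups overlapped. Of the 26 regions, 7 were in all 8 lists (26.9%, against 9.06% of all regions) and 10 in a single list (38.5%, against 52.3%). The regions in all lists were 1 in Ythdf1, 2 in Ythdf2, 3 in Ythdf3 and 1 in Ythdc1. Among protein-coding genes with a peak, 28.1% had at least 1 such region, 7.83% at least 2 and 2.11% at least 3. The regions are numbered below from 5' to 3' within each gene.

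**Figure D1:**
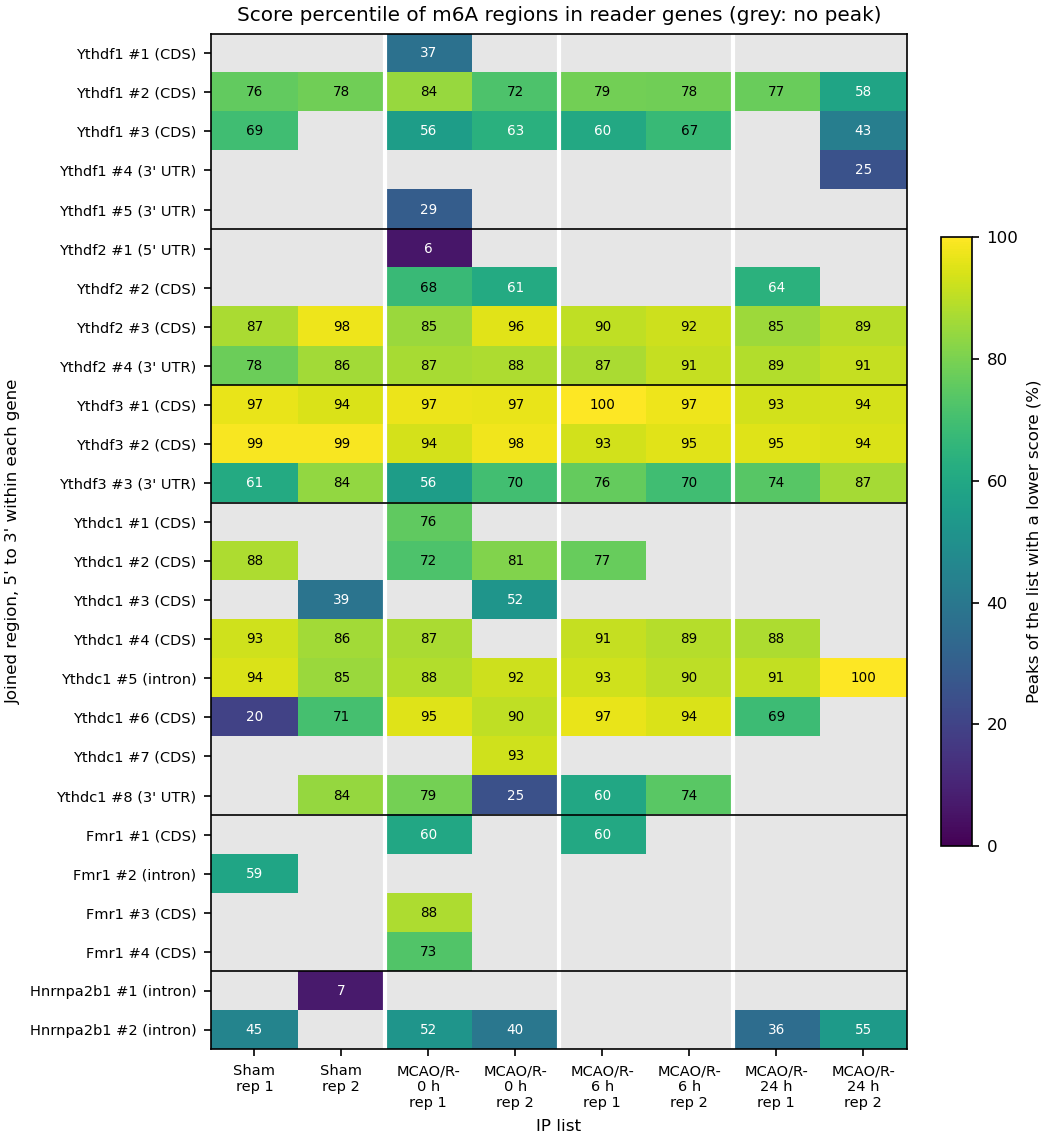
Score percentile of the 26 m6A regions of reader genes (rows, 5' to 3' within a gene) in each of the 8 IP lists (columns, 2 per group), as the percentage of the peaks of that list with a lower score; grey marks a list without a peak. Filled rows run across all 8 lists in 7 regions, and those of Fmr1 are mostly grey.

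The score of a peak comes from the peak caller on a scale that the sources do not define. It was therefore turned into a percentile, the percentage of the peaks of the same list with a lower score, and a region takes the value of its highest peak in each list. A percentile is a rank and not a methylation level. The median of the 7 reader regions in all lists was 89.7%, against 82.7% for all 4753 regions found in all lists (quartiles 70.2% and 92.1%).

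Ythdf1 lies on the minus strand of chr2:180546165-180562815 (GRCm39). Its main region (region 2) lay in the coding sequence of exon 5, at chr2:180552863-180553912, and was 1050 nt long. All 8 lists shared only 75 nt of it, at chr2:180553788-180553862, in the 5' part of the exon. The A of the motif nearest to the middle of those shared bases (motif in capitals, minus strand) was covered in 8 lists, and the site stands at chr2:180553832-180553860 as follows.
Ythdf1 region 2: acttagtaatggAGACCatcacttcatgc
Its score percentile stood at 76.1% and 78.3% in Sham, at 84.4% and 72.2% after 0 h, at 78.8% and 78.2% after 6 h, and at 77.2% and 58.4% after 24 h. By highest peak, each reperfusion group overlapped with Sham (p = 0.705, one-sided exact permutation over all divisions of the 8 lists into 4 pairs). The highest peak lay at different places in the lists. Over the 75 nt shared by all lists, peaks ranked at 51.9% and 54.8% in Sham and at 34.4% and 53.9% after 0 h. They ranked there at 78.8% and 62.4% after 6 h and at 73.1% and 56.4% after 24 h, each above both Sham lists. The ranks at this position were not tested. Of the 7 regions in all lists only region 3 of Ythdf3 had a lower median, and 38.8% of all such regions of the genome ranked below Ythdf1 region 2. A shorter region (region 3) at chr2:180552563-180552662, in the same exon and 206 to 107 nt before the stop codon, was in 6 lists. It ranked at 69.4% in Sham replicate 1, at 55.8% and 63.4% after 0 h, at 60.5% and 67.4% after 6 h and at 42.9% in replicate 2 after 24 h. The lists of Sham replicate 2 and of replicate 1 after 24 h held no peak there. The remaining 3 regions of the gene were in 1 list each.

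Ythdf2 lies on the minus strand of chr4:131911065-131939614. Its coding region of 1350 nt (region 3) filled most of exon 4, at chr4:131931532-131932881. The bases covered in 8 lists were 100 nt at chr4:131931857-131931956 and 25 nt at chr4:131932332-131932356. Its percentile stood at 87.3% and 97.6% in Sham, at 84.9% and 95.6% after 0 h, at 90.4% and 92.2% after 6 h, and at 85.2% and 89.1% after 24 h (p = 0.781, same exact permutation test). The Sham and MCAO/R-0 h lists spanned wider ranges than the lists of the later times, and by highest peak no group stood apart. The highest peak lay at different places in the lists. Over the shared 100 nt, the peaks after 24 h ranked lowest, at 82.1% and 82.3%, against 84.9% to 97.6% in the other lists. Over the shared 25 nt they also ranked lowest, at 36.1% and 42.1%, against 69.8% to 97.6%. The ranks at these positions were not tested.

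A second region of Ythdf2 in all lists (region 4) lay in the 3' UTR at chr4:131913998-131914172, from 66 to 240 nt after the first base of the stop codon. It was 1 peak of 175 nt with identical bounds in 7 lists and a peak of 75 nt in MCAO/R-6 h replicate 1. It held 2 sites of GGACT, the form of the motif that the methyltransferase prefers, in its DNA letters. Among regions of like length (within 20%), 2.27% held at least as many. The upstream site, at chr4:131914141-131914169, was covered in 8 lists and the downstream site, at chr4:131914060-131914088, in 7, shown beside the motif nearest to the middle of the bases of region 3 that all lists shared, at chr4:131931921-131931949 (minus strand for each, RRACH or GGACT in capitals).
Ythdf2 region 3: gactggaatctgAAACAtggccgggtttt
Ythdf2 region 4, upstream: gcaagaaaattaGGACTttttttcttaat
Ythdf2 region 4, downstream: acaaaagacataGGACTtaactggaaaat
Region 4 ranked at 77.7% and 86.0% in Sham, at 86.9% and 87.8% after 0 h, at 87.2% and 91.1% after 6 h, and at 88.6% and 91.3% after 24 h. All 6 MCAO/R lists thus lay above both Sham lists, as they did for 6.82% of all regions in 8 lists. The comparison of the groups gave p = 0.0857 (same exact permutation test, adjusted p = 0.748), which did not set them apart, but this test can miss a shift of Sham alone. Sham replicate 2 (86.0%) lay close to the lowest MCAO/R list (86.9%).

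Ythdf3 lies on the plus strand of chr3:16237297-16271201 and had 3 regions in all, each of them in 8 lists. Separate stretches of coding exon 5 were covered, region 1 of 725 nt at chr3:16258034-16258758 and region 2 of 575 nt at chr3:16258934-16259508. In each of them 375 nt were covered by every list, more than in the coding regions of Ythdf1 and Ythdf2. Region 3, of 200 nt, lay in the 3' UTR at chr3:16268214-16268413, 75 to 274 nt after the first base of the stop codon, and shared 50 nt over the lists. The motif sites nearest to the middle of the shared bases (RRACH in capitals, plus strand) stand at chr3:16258347-16258375, chr3:16259291-16259319 and chr3:16268251-16268279, with the A covered in 8, 4 and 7 lists. The only GGACT of the gene's regions, at chr3:16258419-16258447 in region 1, was covered in 8 lists.
Ythdf3 region 1: gctattactgatGGACAggccggatttgg
Ythdf3 region 1, GGACT: caaggcatgactGGACTgaaaattggtgg
Ythdf3 region 2: gaagtctgttgtAGACTataatgcttatg
Ythdf3 region 3: ggtgacatctttGAACCctttaacatgaa
Region 1 ranked at 96.8% and 94.2% in Sham, at 97.1% and 96.5% after 0 h, at 99.7% and 97.4% after 6 h, and at 93.3% and 93.7% after 24 h. The region was 1 peak in each list after 0 h and 6 h, 2 in each Sham list, and 3 and 2 after 24 h. Whether its rank follows this split was not tested. The lists after 6 h were the highest and those after 24 h the lowest of the 8. These groups thus did not overlap with Sham or with each other. This was the only one of the 7 regions with p under 0.05 (p = 0.0286, one-sided exact permutation test), where 6.69% of all regions in 8 lists had one. After Benjamini-Hochberg adjustment over 4753 regions this permutation p did not hold (adjusted p = 0.702), and no region of any gene passed (0 of 4753, with 318 below 0.05 before adjustment and a smallest adjusted p of 0.681). It also missed 0.05 when Sham replicate 2, either library after 0 h, replicate 1 after 6 h or either library after 24 h was left out (p = 0.0571 to 0.171, exact permutation tests), and with the log2 of the score or lists of equal size in place of the percentile (p = 0.133 for each, same test).

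Region 2 of Ythdf3 ranked at 99.0% and 99.0% in Sham, at 93.6% and 97.8% after 0 h, at 93.2% and 95.4% after 6 h, and at 95.2% and 94.3% after 24 h. All 6 MCAO/R lists lay below both Sham lists, as in 2.44% of all regions in 8 lists. The region was 1 peak in both Sham lists and in MCAO/R-0 h replicate 2, and 2 peaks in each other list. The lists with 1 peak ranked highest, and whether its rank follows this split was not tested. The comparison of the 4 groups gave p = 0.238 (same exact permutation test), but this test can miss a shift of Sham alone. In the 3' UTR, region 3 ranked at 61.3% and 83.6% in Sham, at 55.8% and 69.8% after 0 h, at 76.4% and 69.5% after 6 h, and at 74.1% and 86.5% after 24 h (p = 0.486, same exact permutation test). Its Sham replicates lay far apart and spanned most of the values of the other groups.

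**Figure D2:**
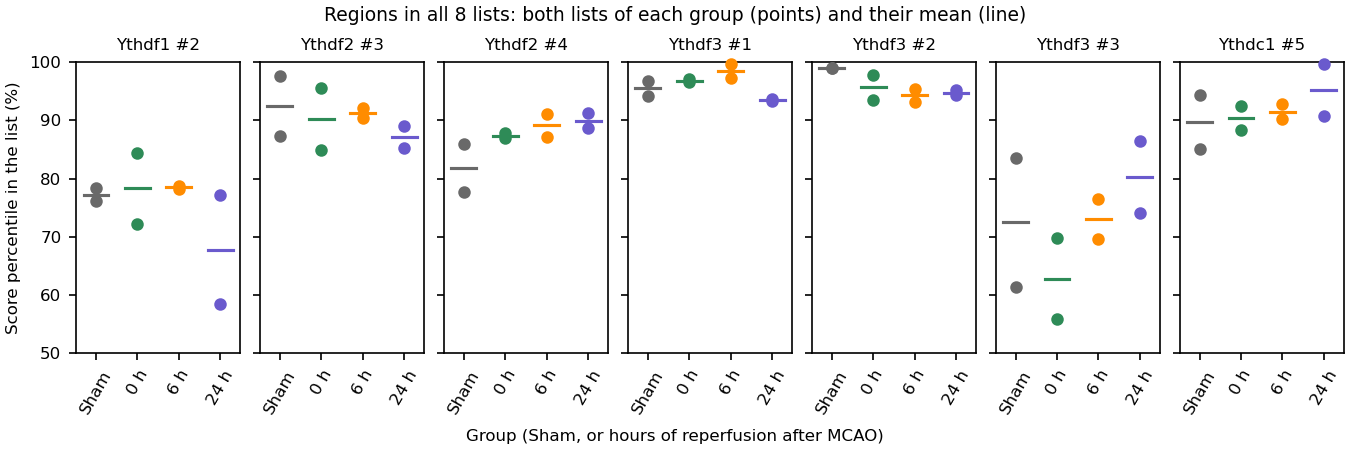
Score percentile (vertical axis, from 50 to 100%) of the 7 reader regions found in all 8 lists, with 2 lists (points) and their mean (line) for Sham and for 0 h, 6 h and 24 h of reperfusion. The points of Ythdf3 region 1 separate MCAO/R-6 h (99.7% and 97.4%) from MCAO/R-24 h (93.3% and 93.7%), and in most other panels the groups overlap.

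The 3 Ythdf transcripts had the same layout. A single long coding exon, exon 5 of 1521 nt in Ythdf1, exon 4 of 1584 nt in Ythdf2 and exon 5 of 1599 nt in Ythdf3, makes up 45.5%, 30.0% and 30.7% of the transcript with the longest coding sequence. It held a median of 100%, 85.6% and 89.8% of the exonic bases covered by peaks, over 8 lists each. The stop codon lies in the next exon in all of them. The covered part of the long exon ended 107, 110 and 101 nt before the first base of the stop codon. After the stop codon, Ythdf2 and Ythdf3 had their 3' UTR regions at 66 to 240 nt and 75 to 274 nt. Ythdf1 had a peak of 50 nt at that distance, 69 to 118 nt after the stop codon, only in MCAO/R-24 h replicate 2, where it ranked at 25.4%.

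To compare positions, the 3 proteins translated from GRCm39 were aligned, and each alignment column was given the number of lists whose peaks covered its codon. The alignment had 635 columns, 546 of them with a residue in all 3 proteins, and the proteins were identical at 69.2% (Ythdf1 and Ythdf2), 71.9% (Ythdf1 and Ythdf3) and 70.6% (Ythdf2 and Ythdf3) of the aligned columns. Regions found in at least 4 lists covered the same column in all 3 genes at 320 columns, 58.6% of the 546. In each gene alone, such regions covered 65.7% (Ythdf1), 77.9% (Ythdf2) and 73.2% (Ythdf3) of the codons. Counted base by base, with a peak in at least 4 lists at the column itself, 148 columns (27.1%) were shared. With at least 6 lists 57 (10.4%) were shared, and with all 8 lists 0. By bases in at least 4 lists, the codons covered in each gene alone were 34.6%, 66.7% and 61.9%, in the same order. Whether more columns were shared than such coverage gives without common positions was not tested. The stretch shared in at least 6 lists was longest at columns 440 to 475, which are codons 391 to 426 of Ythdf1, 385 to 420 of Ythdf2 and 402 to 437 of Ythdf3, and 77.8% of its columns were identical in the 3 proteins. A second such stretch ran from column 285 to 297 (61.5% identical), and one in at least 4 lists from 567 to 598 (96.9%). The other stretches in at least 4 lists were identical in the 3 proteins at 0% (columns 260 to 273 and 431 to 436) to 76.3% (438 to 475). The bases covered in every list differed among the genes, with 25 such columns in Ythdf1, 43 in Ythdf2 and 255 in Ythdf3.

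**Figure D3:**
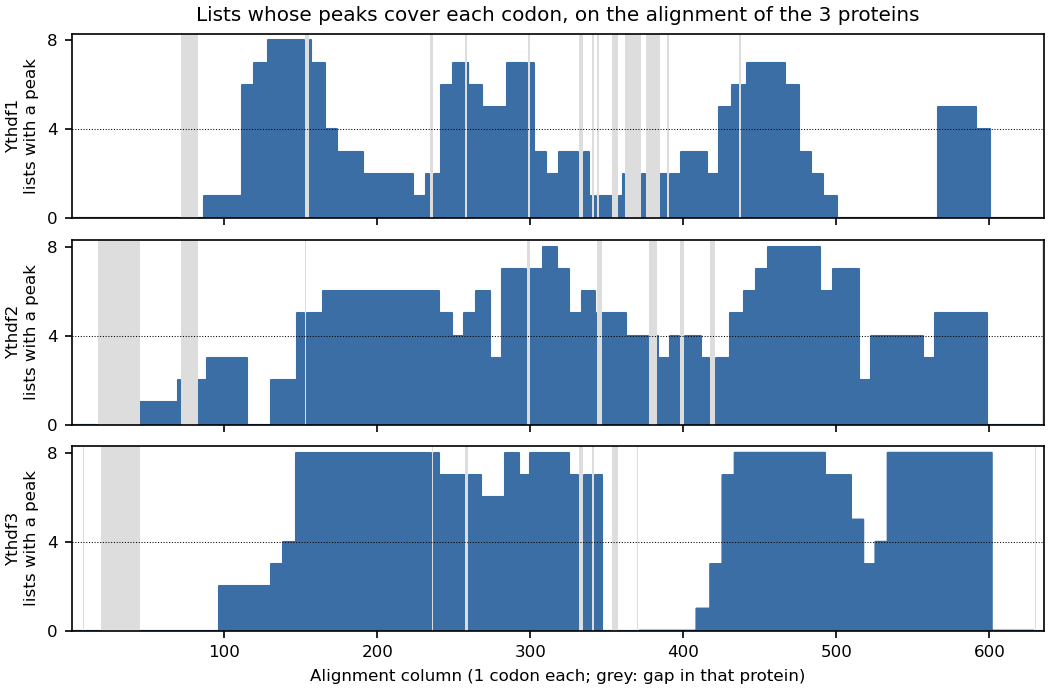
Number of IP lists (vertical axis, 0 to 8) whose peaks cover each codon of Ythdf1, Ythdf2 and Ythdf3, along the 635 columns of the protein alignment (horizontal axis), with gaps of a protein in grey and a dotted line at 4 lists. All 3 profiles are high around columns 440 to 475 and fall to 0 before the last codons, and Ythdf3 is covered by 8 lists over the longest stretches.

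Motif sites were partly kept at the same place. The coding sequences held 33, 28 and 31 RRACH sites in Ythdf1, Ythdf2 and Ythdf3, and 15, 19 and 19 of them lay under a peak in at least 4 lists. At 7 alignment columns all 3 genes had a site, and at 3 of these (columns 287, 446 and 576) the A was covered in at least 4 lists in each gene. The site at column 446 lies in the longest shared stretch and was covered in 7 lists in Ythdf1, 6 in Ythdf2 and 8 in Ythdf3, and that at column 576 in 5, 5 and 8. Both are shown with the motif in capitals, so that the letters around a kept site can be compared. They stand at chr2:180553009-180553037, chr4:131931972-131932000 and chr3:16259031-16259059 for column 446, and at chr2:180552619-180552647, chr4:131931582-131931610 and chr3:16259421-16259449 for column 576.
Ythdf1 column 446: cctgtcctggagAAACTgaaagctgccca
Ythdf2 column 446: ccggtgttggagAAACTtcggtccattaa
Ythdf3 column 446: ccagtgctggaaAAACTaaaggccataaa
Ythdf1 column 576: aataacgacaacAAACCtgtcacaaactc
Ythdf2 column 576: aacaacgagaatAAACCagtgaccaactc
Ythdf3 column 576: aataatgacaacAAACCagtaaccaattc
A site under a peak is a description of the letters there and not a measured methylated base, since a peak spans many bases. At column 533 the letters were GGACT in Ythdf1 and Ythdf2 and AGACT in Ythdf3, and the A was covered in 0, 4 and 4 lists.

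Ythdc1, on the plus strand of chr5:86951957-86985080, held its peaks in another kind of place. Its only region in all 8 lists (region 5) was the longest of the reader regions, 1475 nt at chr5:86975990-86977464. It lies within intron 11 of the coding transcript and is exon in annotated transcripts with a retained intron or subject to nonsense-mediated decay, and a stretch in its 3' part is also exon of a transcript without a defined coding sequence. The region began 10 nt after the end of exon 11 and ended at base 1484 of the 2432 nt of the intron, so that it took up 60.6% of it. Of the regions in all 8 lists that lie in protein-coding genes, 39 of 4515 (0.864%) were outside the exons of basic coding transcripts. Whether the signal comes from pre-mRNA or from a stable transcript that keeps the intron cannot be told apart in these lists.

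The region held 9 GGACT sites. The spliced coding transcript of the gene, which leaves this intron out, held 0 outside the regions. Of regions of like length (within 20%), 0.253% held at least 9, which is this region alone of its class. Peaks of all 8 lists covered the A of 4 of the sites, and the A of the least covered site was under peaks of 2 lists. The 4 sites with the A covered in all lists are shown in order along the intron with GGACT in capitals (plus strand). They stand at chr5:86976701-86976729, chr5:86977074-86977102, chr5:86977168-86977196 and chr5:86977254-86977282.
Ythdc1 site 1: ggcagtacctgtGGACTtaaagtgttttt
Ythdc1 site 2: tttggcctaaaaGGACTgatcaccaagat
Ythdc1 site 3: cagttttgcaatGGACTgcaaactatact
Ythdc1 site 4: cagtcagtagttGGACTactatatgaact
The last 3 of these fell within the longest stretch covered by every list, 275 nt at chr5:86977065-86977339. Its other stretches in every list were 25 nt at chr5:86976065-86976089 and 200 nt at chr5:86976715-86976914. The region ranked at 94.4% and 85.1% in Sham, at 88.4% and 92.4% after 0 h, at 92.8% and 90.2% after 6 h, and at 90.7% and 99.7% after 24 h, and the groups overlapped (p = 0.752, one-sided exact permutation test).

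**Figure D4:**
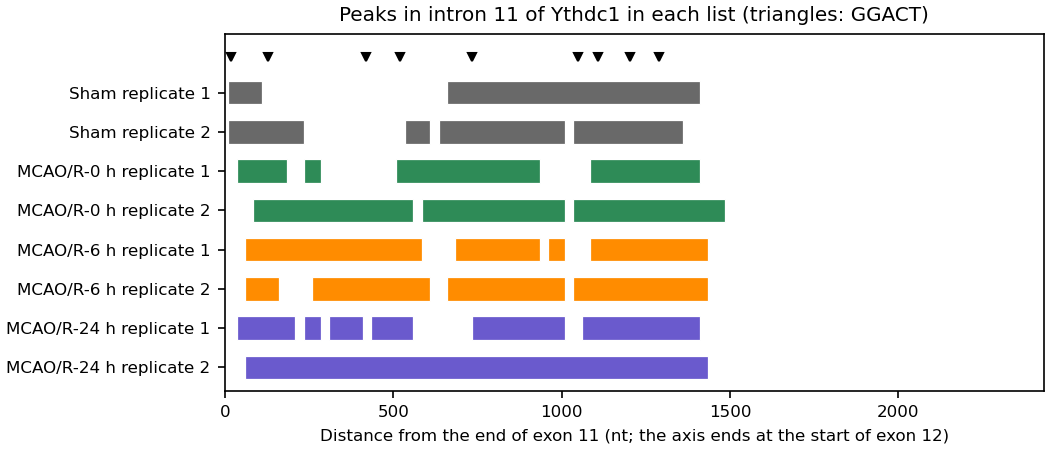
Peaks in intron 11 of Ythdc1 in each of the 8 IP lists (rows, coloured by group), by distance in nt from the end of exon 11, with triangles at the 9 GGACT sites. Every list has peaks in the first 1484 nt and none in the rest of the intron, and MCAO/R-24 h replicate 2 has 1 unbroken peak of 1375 nt.

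In MCAO/R-24 h replicate 2 this peak was the only one of the gene, while the other lists held 5 to 10 peaks of Ythdc1. The 7 other regions were all missing there. Region 6, with its middle in exon 14 at chr5:86979465-86981409, was in the other 7 lists, at 19.8% and 70.7% in Sham, 95.0% and 90.2% after 0 h, 96.6% and 94.3% after 6 h and 68.7% in replicate 1 after 24 h. The highest peaks after 0 h, and that of replicate 2 after 6 h, were separate peaks downstream that neither Sham list held. At chr5:86979627-86979676, the stretch also covered in Sham replicate 2 (70.7%), the peaks after 0 h ranked at 72.8% and 70.5%, on either side of it. A region missing from 1 list was not tested. Region 4, in exons 10 and 11 just before the intron at chr5:86974547-86975964, was in 6 lists at 86.0% to 92.8%, region 8 in the 3' UTR in 5 lists at 24.7% to 84.4%, and region 2 in 4 lists at 72.1% to 87.8%.

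Fmr1, on the plus strand of chrX:67722124-67761578, had 4 short regions of 25 to 150 nt. The most recurrent, region 1 of 150 nt in the coding sequence of exon 11 at chrX:67748856-67749005, was listed in MCAO/R-0 h replicate 1 at 60.1% and in MCAO/R-6 h replicate 1 at 60.2%, each time without the other replicate. The remaining regions were in 1 list each, Sham replicate 1 or MCAO/R-0 h replicate 1, and both MCAO/R-24 h lists held none. The motif nearest to the middle of the bases shared by both lists of region 1 stands at chrX:67748912-67748940 (plus strand, RRACH in capitals).
Fmr1 region 1: tctgaagaaaagAAACAtttagatacaaa
Hnrnpa2b1, on the minus strand of chr6:51435248-51448049, carried its peaks within intron 1 of the coding transcript, again over an exon of a transcript with a retained intron. Region 2, of 100 nt at chr6:51445716-51445815, was in 5 lists, at 45.1% in Sham replicate 1, 52.1% and 39.7% after 0 h, and 35.9% and 54.7% after 24 h. Sham replicate 2 and both MCAO/R-6 h lists held no peak there, and Sham replicate 2 had instead a peak of 50 nt in the same intron at 7.39%. No RRACH letters lie in either region, although 36 sites lie in the coding transcript.

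The density of RRACH sites was compared between regions and the rest of each transcript as a description, with no test. In the regions of Ythdf1, Ythdf2 and Ythdf3 there were 18.2, 19.4 and 19.3 sites per kb, against 11.7, 12.2 and 9.72 in the rest of their transcripts. In Ythdc1 the values were 14.3 and 14.4 sites per kb, and in Fmr1 13.3 and 11.3. The regions of both these genes also hold intron sequence outside the coding transcript. Over all regions of all genes the density was 17.1 sites per kb, and over those in 8 lists 18.4.

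The study asked how m6A changes after ischemia and reperfusion, so each time was compared with Sham. Gained here means a peak in both lists of a time and in no Sham list, and lost the reverse. In MCAO/R-0 h, 1 of the 25 reader regions found in either group was gained (3.87% of all regions) and 0 were lost (1.87%). In MCAO/R-6 h, 0 of 17 were gained (4.95% of all regions) and 0 lost (2.01%). In MCAO/R-24 h, 0 of 18 were gained (3.78%), and 0 (2.76%) were lost. The gained region was Ythdf2 region 2, of 175 nt in coding exons 3 and 4 at chr4:131932932-131938142, at 67.9% and 61.0% in the MCAO/R-0 h lists. It was also listed in MCAO/R-24 h replicate 1 at 64.0%, and all 3 lists shared 75 nt. These counts carry no test, since exact permutation of 2 lists against 2 others gives p = 0.333 at the least.

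By rank, 1 of the 7 regions in all lists was higher in both MCAO/R-0 h lists than in both Sham lists (Ythdf2 region 4; 22.7% of all 4753 regions) and 1 was lower (Ythdf3 region 2; 11% of all regions). In MCAO/R-6 h, 2 were higher (Ythdf2 region 4 and Ythdf3 region 1; 26.2% of all regions) and 1 lower (Ythdf3 region 2; 13.6%). In MCAO/R-24 h, 1 was higher (Ythdf2 region 4; 25% of all regions) and 2 were lower (Ythdf3 regions 1 and 2; 13.3%). These comparisons share the Sham lists, and the counts are too small to be set against the shares over all regions. The test over 4 groups also has a limit of its own. Of the 105 divisions into 4 pairs only 15 keep the lists of one group together, so a difference in 1 group alone can miss 0.05 whatever its size, and the smallest possible p is 0.00952.

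The length covered by peaks gave a second measure of the same regions, chosen after the lists were seen. In Ythdf1 region 2 the covered length stood at 725 and 675 nt in Sham, at 750 and 400 nt after 0 h, at 700 and 525 nt after 6 h, and at 375 and 275 nt after 24 h. The mean was 700 ± 35.4 nt in Sham and 325 ± 70.7 nt after 24 h of reperfusion (SD, n = 2 each), and the MCAO/R-24 h lists were the shortest of the 8. In Ythdf2 region 3 it stood at 1000 and 1225 nt in Sham, at 525 and 1225 nt after 0 h, at 825 and 1075 nt after 6 h, and at 550 and 675 nt after 24 h. Here MCAO/R-24 h lay below Sham, while MCAO/R-0 h replicate 1 was shorter still. In Ythdf3 region 2 it stood at 550 and 525 nt in Sham, at 450 and 525 nt after 0 h, at 450 and 500 nt after 6 h, and at 475 and 450 nt after 24 h.
With these 3 of 7 regions, both MCAO/R-24 h lists covered less than both Sham lists, which was so for 13.9% of all regions in 8 lists, a count on which no test was made. The reverse held in 1 region, that of Ythdc1 intron 11 (16.3% of all regions), at 850 and 1000 nt in Sham, at 950 and 1350 nt after 0 h, at 1175 and 1200 nt after 6 h, and at 1075 and 1375 nt after 24 h. In MCAO/R-6 h, 1 region was longer than in Sham (again Ythdc1 intron 11; 21.9% of all regions) and 1 shorter (Ythdf3 region 2; 10.7%), and in MCAO/R-0 h 0 were longer (20.7%) and 0 shorter (6.77%). No test was made on 2 lists a group, and the depth of the libraries, on which the reach of a peak can depend, is unknown.

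**Figure D5:**
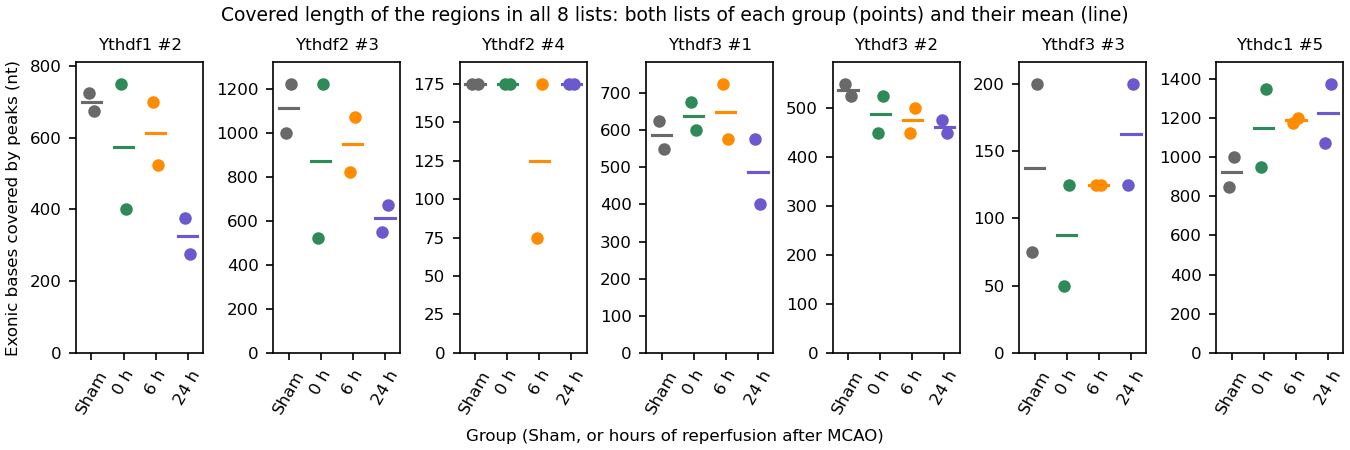
Exonic bases covered by peaks (nt, each axis from 0) in the 7 reader regions found in all 8 lists, with 2 lists (points) and their mean (line) for Sham and for 0 h, 6 h and 24 h of reperfusion. In Ythdf1 region 2 the MCAO/R-24 h lists (375 and 275 nt) lie below all others, and in Ythdc1 region 5 they lie above Sham.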

How the data were processed

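The authors trimmed reads with Trim Galore, aligned them to GRCm39 with HISAT2, dropped multi-mapped ones with samtools and ran exomePeak2 for the peaks. The deposited lists give each peak of an IP library as 1 span with a strand and a score, on a scale not given in the sources used here. Each list is longer than the number of confident peaks that the paper reports for a sample, so the lists are not that confident set. They hold no counts, so depth is unknown and no counting error can be given. The input libraries were not used.

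Peaks were given to the gene of their strand with the most exonic overlap (GENCODE M39), and their exonic part was rebuilt from the exons of all transcripts except those tagged TAGENE, or of all where none was hit. The exons of basic protein-coding transcripts had been planned. The set was changed after the lists were seen, because it did not rebuild the peaks in retained-intron exons of Ythdc1 and Hnrnpa2b1. With the changed set, 98.4% of the peaks had a length that is a multiple of 25 nt, against 93.4%. The planned set is given as an alternative. Peaks sharing at least 1 exonic base were joined.

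Groups were compared by exact permutation, with Benjamini-Hochberg adjustment over the 4753 regions in all lists, using Python 3.11.15, numpy 2.4.6 and scipy 1.17.1. The scripts were tested on simulated data. Proteins were aligned with MAFFT 7.526. Motifs were searched on the transcribed strand, and sequences are from GRCm39. Distances use the transcript with the longest coding sequence. All 10 genes are named. The regions described singly are those in all lists, the most recurrent of the other genes, gained or lost ones and those of the Ythdf genes in at least 4 lists, and Ythdc1 regions 2, 4, 6 and 8 and the GGACT sites were added after their values were seen. The members and gene lists were chosen with earlier results of these data known. Replicates were checked for identity: 3.52% to 5.10% of the spans were identical between the lists of a group.

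The alternatives were lists of equal size (18775 peaks), the higher-scoring 50%, joining by 25 bases or whole spans, other exon sets, a log2 score, a replicate block and leaving out each library.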

Additional observations from a re-analysis of the deposited data

Results flagged for a closer look

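Region 1 of Ythdf3 ranked on opposite sides of Sham at the later times, although its exact permutation p did not hold after adjustment (adjusted p = 0.702). Both MCAO/R-6 h lists (99.7% and 97.4%) lay above both Sham lists (96.8% and 94.2%), and both MCAO/R-24 h lists (93.3% and 93.7%) lay below them. The difference between these times was not tested by itself. No group had the 4 samples needed to look for a single list far from the others.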

How the results depend on the processing

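The mean of 22.4 reader peaks per list, the 7 regions in all lists, and the gained and lost counts (1, 0 and 0 at 0 h, 6 h and 24 h) stayed within 1.5 times under every alternative run for them with all libraries kept. The number of reader regions with p under 0.05 was 1, and became 0 with lists of equal size, 0 with the log2 score, and 2 with the replicate block (Ythdf3 region 1 and Ythdf2 region 4, both p = 0.0417, exact permutation within replicate numbers). The deviations of same-numbered lists correlated weakly, at 0.0344 to 0.0966 over the 6 pairs of groups. Such correlations cannot decide whether the numbers pair the samples. The 320 alignment columns under regions of all 3 Ythdf genes became 148 when single bases in at least 4 lists were counted, an alternative added after seeing the data that is stricter by construction, and ranged from 288 to 338 under the planned ones.

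With 1 library left out, reader peaks ranged from 21.3 to 23.1, regions in all remaining lists from 7 to 8, regions with p under 0.05 from 0 to 1, columns from 302 to 320, and gained or lost regions from 1 to 8 in MCAO/R-0 h, 0 to 3 in MCAO/R-6 h and 0 to 4 in MCAO/R-24 h. Where the library left out belongs to the groups compared, 1 side rests on a single list. For MCAO/R-0 h the count was 8 without its replicate 2, 3 without its replicate 1, 4 and 3 without Sham replicates 1 and 2, and 2 without MCAO/R-6 h replicate 1, where both sides kept 2 lists. For MCAO/R-6 h it was 3 without either Sham list and 1 without either of its own, and for MCAO/R-24 h 4 and 2 without Sham replicates 1 and 2, and 3 and 1 without its own replicates 1 and 2. The p of Ythdf3 region 1 was 0.0571 without Sham replicate 2, 0.162 and 0.133 without MCAO/R-0 h replicates 1 and 2, 0.133 without MCAO/R-6 h replicate 1 and 0.171 without either MCAO/R-24 h list, and it stayed under 0.05 without Sham replicate 1 (0.0190) and MCAO/R-6 h replicate 2 (0.0476, exact permutation tests). That of Ythdf3 region 2 was 0.0476 without MCAO/R-0 h replicate 1 (exact permutation test). Beyond the libraries left out, the cause of these changes was not tested. Depth, RNA abundance and the IP to input ratio are unknown here, and limit what a missing peak means.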
